A study of Mus musculus with 12 samples.

Results

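The Sox4-Myb marker set of the spleen comprises 9 genes, *Sox4*, *Myb*, *Kcnc1*, *St8sia6*, *Ift80*, *Dnah8*, *Xdh*, *Tubb2b* and *Pde2a*, of 18986 genes listed over the series. They were chosen from these data, as genes that mark cluster 1 of the 12W spleen, cluster 3 of the 28W spleen or both. Their levels in those clusters, and in any cluster of these libraries set against the rest, are therefore a description and no test. The same holds for spleen set against kidney. The question asked here is how far the set was still seen with age and in cells that had entered the kidney. The cells had been sorted for PD-1, CD44 and CD8. The mice were NZB/W F1, the lupus-prone offspring of the NZB and NZW strains. Some clusters were nonetheless marked by genes of other cell types, as given below. The labels list no treatment. By the sample titles, splenic cells came from mice of 12 weeks (12W spleen) and of 28 weeks (28W spleen). Cells sorted out of kidney came from mice of 28 weeks (28W kidney). The age label of the samples titled 28W spleen says 12 weeks, so the age comparison rests on the titles. The labels list 4 samples for each group, but each group's table pools them, so every group was handled as 1 library and no difference has a replicate check. How many mice gave each library is not stated in the sources used here.

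The libraries held 6894, 6481 and 7135 cells in 10, 11 and 12 clusters, in the order 12W spleen, 28W spleen and 28W kidney, with 34742303, 32023473 and 29937384 unique molecular identifiers (UMIs, counts of captured transcripts). Levels are given as UMIs per 1000000 UMIs of the library or cluster (CPM), and the ranges in parentheses are exact Poisson 95% intervals, which cover counting error only. A gene with 0 UMIs in a library could be as high as 0.0864, 0.0937 or 0.10 CPM, the level of 3 counts. *Cd8a* was at 591, 488 and 738 CPM and *Pdcd1*, which encodes PD-1, at 36.6, 34.7 and 115 CPM, so transcripts of the sorted proteins were present. Pairs of libraries shared 52 to 66 cell barcodes. Clusters were numbered by the authors within each library, so equal numbers in different libraries do not mean equal cells.

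SOX4 is a DNA-binding protein of the HMG-box family that acts in early lymphocyte development. MYB is a transcription factor that lymphoid progenitors need, and it is known to keep CD8+ T cells in a stem-like, self-renewing state. Cells of that kind commonly express *Tcf7*, *Lef1* and *Ccr7* and low levels of cytotoxic genes. The other genes of the set have no shared pathway. *Kcnc1* encodes a voltage-gated potassium channel, *St8sia6* a sialyltransferase of the Golgi, *Ift80* a subunit of the intraflagellar transport complex that builds cilia, *Dnah8* a heavy chain of the dynein motor of cilia and flagella, and *Tubb2b* a beta-tubulin. *Xdh* encodes xanthine dehydrogenase, which turns hypoxanthine into xanthine and uric acid, and *Pde2a* a phosphodiesterase that hydrolyses cyclic AMP and cyclic GMP.

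All 9 genes are protein-coding and lie on 6 chromosomes of GRCm38. *Sox4* lies on the minus strand of chromosome 13 (28948919 to 28953713), as does *Tubb2b* (34126748 to 34130466). *Myb* is on the minus strand of chromosome 10 (21124935 to 21160984) and *St8sia6* on that of chromosome 2 (13651021 to 13794064). *Kcnc1* (46396497 to 46438704) and *Pde2a* (101421691 to 101512827) are on the plus strand of chromosome 7. *Ift80* is on the minus strand of chromosome 3 (68892499 to 69004570). *Dnah8* (30624354 to 30877365, plus strand) and *Xdh* (73883895 to 73950196, minus strand) share chromosome 17. The start of *Dnah8* overlaps *Glo1* and the noncoding gene *1700097N02Rik* on the opposite strand, which had 4085 and 3974 UMIs in 12W spleen, and whether counting used strand is not given in the sources used here. Reads of *Tubb2b* and its near-identical paralog *Tubb2a* can be hard to tell apart, so their split is uncertain.

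RefSeq promoter windows of GRCm38.p6 were matched for 6 of the 9 genes. Those of *Sox4*, *Myb* and *Kcnc1* are shown, the first pair because they name the set and *Kcnc1* because it ranked 2 and 4 by log2 ratio in the clusters from which the genes were picked. Each run is the 250 bases upstream of an annotated start, written 5′ to 3′ on the strand of the gene, at chr13:28953700-28953949 for *Sox4*, chr10:21160985-21161234 for *Myb* and chr7:46396218-46396467 for *Kcnc1*. The capitals mark matches on either strand to CCAAT, to the GC box GGGCGG or to the E2F motif TTTGGCG.
Sox4: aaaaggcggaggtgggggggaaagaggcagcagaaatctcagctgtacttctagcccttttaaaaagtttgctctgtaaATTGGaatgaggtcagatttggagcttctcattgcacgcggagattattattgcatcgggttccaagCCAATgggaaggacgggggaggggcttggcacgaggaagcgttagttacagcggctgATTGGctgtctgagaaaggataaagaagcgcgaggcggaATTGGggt
Myb: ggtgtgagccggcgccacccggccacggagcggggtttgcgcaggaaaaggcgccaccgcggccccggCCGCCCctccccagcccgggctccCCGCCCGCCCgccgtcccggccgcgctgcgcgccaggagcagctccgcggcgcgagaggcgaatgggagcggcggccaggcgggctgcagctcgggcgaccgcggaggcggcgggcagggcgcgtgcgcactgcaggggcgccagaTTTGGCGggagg
Kcnc1: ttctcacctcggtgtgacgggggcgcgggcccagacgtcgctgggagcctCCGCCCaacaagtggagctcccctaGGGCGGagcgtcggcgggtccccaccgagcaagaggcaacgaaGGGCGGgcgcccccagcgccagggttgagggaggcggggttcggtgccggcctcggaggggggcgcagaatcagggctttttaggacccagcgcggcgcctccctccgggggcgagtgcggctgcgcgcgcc
The *Sox4* window held 4 matches to CCAAT, a motif found in 33.8% of 32851 promoter windows of this length. Windows of *Myb* and *Kcnc1* each held 3 matches to GGGCGG, which 32.7% of windows hold, and some of those in *Myb* overlap. *Myb* also held TTTGGCG, present in 1.26% of windows. None of the 3 windows had the letters AACNG of the MYB motif (74.2% of windows), ACAAT of SOX proteins (27.7%) or CTTTGA of TCF proteins (13.8%). The last 14 bases of the *Sox4* window lie in an annotated exon. Matches describe the letters only.

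Across whole libraries, each of the 9 genes was highest in 12W spleen, lower in 28W spleen and lowest in 28W kidney, except that scaling by the median gene ratio put *Dnah8* and *Pde2a* level between the spleens. The tables were normalized separately, so levels set across libraries rest on each library's total. *Sox4* was at 72.7 CPM (69.9 to 75.6) at 12 weeks, against 25.9 (24.1 to 27.7) in spleen and 6.21 (5.35 to 7.17) in kidney at 28 weeks. In the same order *Myb* was at 92 CPM (88.8 to 95.2), 53.6 (51.1 to 56.2) and 15.9 (14.5 to 17.4). For both transcription factors the 3 intervals did not overlap. The channel gene *Kcnc1* followed the same order at 20.5, 11.7 and 3.71 CPM, and so did the ciliary gene *Ift80* at 77.7, 43.8 and 10.4 CPM. *Xdh* was at 26.8, 19.7 and 7.11 CPM, again without overlap.

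The other genes of the set separated only some of the libraries. *Dnah8* was at 44.2 CPM (42.0 to 46.5) and 41.4 (39.2 to 43.7) in the spleens, which overlapped, and at 24.2 (22.5 to 26.1) in kidney. *Pde2a* was at 28.3 CPM (26.5 to 30.1) and 26.8 (25.1 to 28.7) in the spleens and at 7.58 (6.63 to 8.64) in kidney, and *St8sia6* at 11 (9.92 to 12.2), 9.68 (8.63 to 10.8) and 4.01 (3.32 to 4.79). These 3 genes thus stood apart in kidney alone. *Tubb2b* did the opposite, at 10.0 CPM (8.99 to 11.1) in 12W spleen against 4.75 (4.02 to 5.56) and 4.14 (3.45 to 4.94) at 28 weeks, where spleen and kidney overlapped. Without clusters marked by other cells, its log2 ratio of kidney over 28W spleen went from -0.16 to -0.82.

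**Figure D1:**
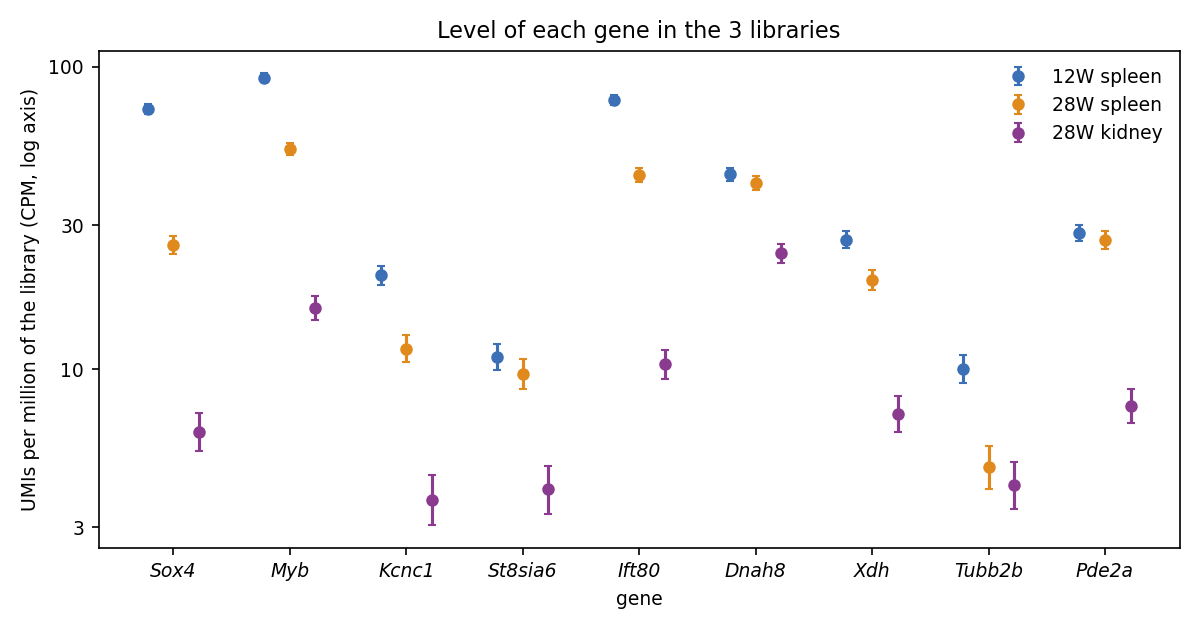
Level of each gene (x axis) in CPM on a log axis in the 12W spleen, 28W spleen and 28W kidney libraries, as points with exact Poisson 95% intervals. All 9 genes have their lowest point in 28W kidney and their highest in 12W spleen, where *St8sia6*, *Dnah8* and *Pde2a* overlap with 28W spleen and the last pair is level under scaling by the median gene ratio.

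The age comparison set 28W spleen against 12W spleen on the log2(CPM + 1) scale. The median log2 ratio of the 9 genes was -0.76 and their range -1.46 to -0.07, beside a median of -0.08 over all 12409 genes with at least 20 UMIs. By this measure 1 of 9 genes, *Sox4*, was at least 2-fold lower and 0 were at least 2-fold higher. Over all genes 0.935% were that much lower and 1.84% that much higher, 2.77% in all. As plain ratios of CPM, 12W spleen was 2.81-fold (2.60 to 3.05) above 28W spleen for *Sox4*, 1.71-fold (1.62 to 1.82) for *Myb* and 2.11-fold (1.74 to 2.57) for *Tubb2b*. A level over a whole library cannot by itself tell fewer cells with a gene from less of its RNA per cell.

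The organ comparison set 28W kidney against 28W spleen and so shares the 28W spleen library with the age comparison. Here the median log2 ratio of the set was -1.43, with a range of -1.98 for *Ift80* to -0.16 for *Tubb2b*, beside a median of 0.11 over all 13186 genes. Of the 9 genes, 7 were at least 2-fold lower in kidney and 0 higher. Over all genes 1.23% were that much lower and 8.77% that much higher, 10.0% in all. The genes were picked as markers of spleen clusters, which favours spleen over kidney beforehand, so these counts are a description and no test. *Sox4* was 4.16-fold (3.55 to 4.91) higher in spleen, *Myb* 3.36-fold (3.04 to 3.73), *Ift80* 4.22-fold (3.73 to 4.79) and *Pde2a* 3.54-fold (3.05 to 4.11). *Dnah8*, at 1.71-fold (1.56 to 1.87), and *Tubb2b*, at 1.15-fold (0.898 to 1.46), were the genes under 2-fold. Leaving out the clusters marked by B cell, myeloid or tubule genes (7, 8 and 12 of kidney, 8 and 10 of spleen) took the median to -1.82, still with 7 genes lower, beside 1.88% of all genes. *Sox4* then moved from -1.90 to -2.60, *St8sia6* from -1.09 to -1.82 and *Myb* from -1.69 to -2.13.

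The clusters from which the set was picked are described next. Cluster 1 of 12W spleen held 1323 cells, 19.2% (18.3 to 20.1, exact binomial interval) of the library, and cluster 3 of 28W spleen held 914 cells, 14.1% (13.3 to 15). All 9 genes were at least 2-fold above the other cells in both clusters, from 1 or both of which each was chosen, where 2.01% and 2.41% of all genes were. In 12W spleen cluster 1 the genes ranked from 2 (*Kcnc1*) to 51 (*Ift80*) by log2 ratio over the other cells, and in 28W spleen cluster 3 from 2 (*Sox4*) to 111 (*Dnah8*). The 6 CD8 T cell markers summed to 3935 and 3315 CPM and the 6 B cell markers to 35.1 and 44.1 CPM, while mitochondrial genes gave 1.32% and 1.22% of UMIs. In 28W spleen cluster 3 the CD8 T cell markers did not move together. *Cd8a* was at 309 CPM against 520 in the other cells, *Cd8b1* at 676 against 1075, *Pdcd1* at 26.8 against 36.1 and *Cd44* at 42.8 against 49.5. *Cd3e*, at 1140 CPM against 1030, and *Cd3d*, at 1121 against 949, were higher. In 12W spleen cluster 1 *Cd8a* was at 517 CPM against 607.

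Set side by side, levels in the picked clusters differed little between the ages for most genes, more so for *Sox4* and *Tubb2b*. *Sox4* was at 180 CPM (170 to 191) in 12W spleen cluster 1 and 115 (106 to 125) in 28W spleen cluster 3, a ratio of 1.56 (1.41 to 1.73). *Tubb2b* was at 27.7 CPM and 18.1, a ratio of 1.53 (1.18 to 2.0). *Myb* was at 192 CPM (181 to 203) and 177 (165 to 189), and its ratio of 1.09 (0.994 to 1.19) did not leave 1. Likewise *Kcnc1*, at 57.7 and 50.3 CPM, and *Dnah8*, at 93.1 and 85.9 CPM, had intervals of the ratio that held 1.

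*Ift80* was at 155 CPM against 128 and *Xdh* at 59.4 against 47.0. In the other direction, *St8sia6* was at 30.2 CPM in 12W spleen cluster 1 and 36.4 in 28W spleen cluster 3, and *Pde2a* at 59.1 and 69.2. Over the 9 genes the ratio of the 12W to the 28W cluster had a median of 1.15 and ran from 0.830 to 1.56. It was above 1 for 7 genes, and its interval was clear of 1 for 4 of them and below 1 for *Pde2a*. Counted per cell, *Sox4* had 85.6 UMIs per 100 cells in 12W spleen cluster 1 and 60.6 in 28W spleen cluster 3, while *Myb* had 91.4 and 93.1.

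Cells outside the picked clusters differed more between the ages. The genes were chosen for their levels in the picked clusters, so this contrast is a description and no test. Outside the picked clusters *Sox4* was at 49.0 CPM (46.5 to 51.6) at 12 weeks and 10.1 (8.91 to 11.3) at 28 weeks, 4.87-fold (4.27 to 5.56) apart. *Tubb2b* was 2.56-fold (1.91 to 3.46) higher in the other 12W cells, *Kcnc1* 2.50-fold (2.04 to 3.08), *Myb* 2.19-fold (2.02 to 2.38) and *Ift80* 2.1-fold (1.93 to 2.29). For *Dnah8* the ratio was 0.996 (0.909 to 1.09) and for *Pde2a* 1.11 (0.986 to 1.25), both within counting error of 1. Over the 9 genes the median was 2.1, and 7 intervals lay above 1.

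Put on the log2 scale, leaving the picked clusters out gave a median by age of -1.04, with 5 of 9 genes at least 2-fold lower, where 1.15% of all genes were. By organ it gave -0.62 with 2 genes, beside 1.03% of all genes. The genes were chosen as high in the picked clusters, so leaving out cluster 3 of 28W spleen had to bring the spleen nearer to kidney. Nothing is read from that shift, or from the shift by age, which leaves out a picked cluster at each age. The share of cluster 3 of the library's UMIs was 66.9% (63.6 to 70.1) for *Sox4* and 64.5% (59.5 to 69.4) for *Kcnc1*, against 31.2% (28.7 to 33.7) for *Dnah8*. In 12W spleen cluster 1 the share was 44.8% (42.9 to 46.8) for *Sox4* and 51.1% (47.3 to 54.8) for *Kcnc1*. The other 28W spleen cells were above the kidney library by a median of 1.62-fold, from 0.577-fold for *Tubb2b* to 2.78-fold for *Ift80*, with 7 intervals above 1 and that of *Tubb2b* below it.

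**Figure D2:**
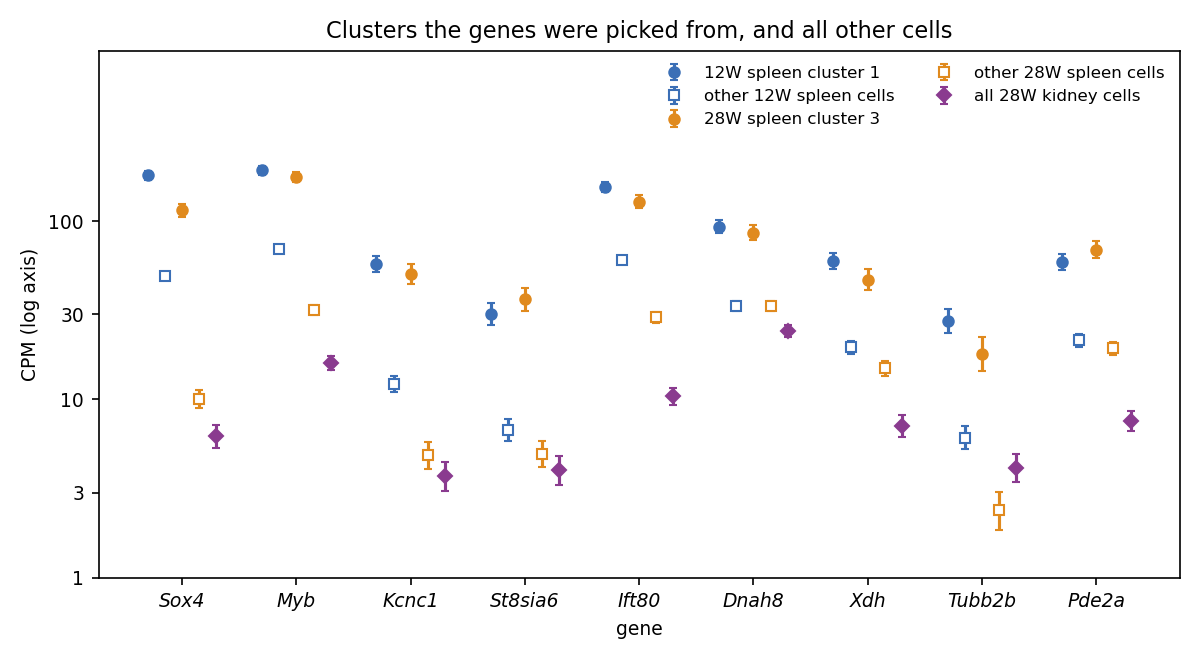
Level of each gene (x axis) in CPM on a log axis, with exact Poisson 95% intervals, in 12W spleen cluster 1, the other 12W spleen cells, 28W spleen cluster 3, the other 28W spleen cells and all 28W kidney cells. The filled circles of the picked clusters lie close together, whereas the open squares of the other spleen cells are apart by 4.87-fold for *Sox4* and level for *Dnah8*. The genes were chosen from the picked clusters, so this contrast is a description and no test.

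Other spleen clusters carried parts of the set. In 12W spleen, *Sox4* was at 120 CPM in cluster 9, 107 in cluster 3, 102 in cluster 8 and 68.0 in cluster 7, and lowest at 3.10 in cluster 2 and 8.04 in cluster 6. Cytotoxic genes summed to 9602 and 1085 CPM in these last clusters and to 1446 in cluster 1. Cluster 7 was deep, with a mean of 13406 UMIs per cell, and held 91.1 *Sox4* UMIs per 100 cells, against 85.6 in cluster 1. Counted per cell rather than by CPM, *Sox4* was thus no lower there than in the cluster that it marks. *St8sia6* did not follow, with 0.269 UMIs per 100 cells in cluster 7 and 14.4 in cluster 1.

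In 28W spleen the next highest *Sox4* levels were 29.8 CPM in cluster 9, 28.9 in cluster 11 and 27.6 in cluster 6, all under the 115 CPM of cluster 3. *Sox4* was lowest in clusters 1, 2 and 4, at 1.40 to 1.69 CPM, where *Tubb2b* was at 0 to 0.843 CPM. *Myb* was lowest in the same library at 7.66 CPM in cluster 1. Cytotoxic genes summed to 5910 to 14449 CPM over these 3 clusters and to 1430 CPM in cluster 3, but their sum was highest, at 20885 CPM, in cluster 9, where *Sox4* rested on 13 UMIs.

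Some spleen clusters with several genes of the set above the rest held little RNA. Cluster 8 of 12W spleen, with a mean of 928 UMIs per cell and 8.98% mitochondrial UMIs, had 4 of 9 genes at least 2-fold higher where 41.6% of all genes were. Cluster 11 of 28W spleen, with 1288 UMIs per cell and 6.64% mitochondrial UMIs, had 6 of 9 where 36.2% of all genes were. *Myb* was at 474 CPM (397 to 561) in the first, above the picked clusters. In the second it was at 209 CPM (159 to 271), which overlapped with 177 (165 to 189) in 28W spleen cluster 3. Counted per cell, *Myb* had 44.0 and 27.0 UMIs per 100 cells in these 2 clusters, below the picked ones. *Malat1*, a nuclear RNA, was at 18143 and 17888 CPM in these clusters and at 4840 and 4763 CPM in the picked ones. The part of low RNA content in these levels was not tested.

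Spleen clusters with markers of other cells each had 1 gene of the set at least 2-fold higher. The haemoglobin-marked clusters, 3 of 12W spleen and 8 of 28W spleen, had *St8sia6* at 34.6 and 28.7 CPM (37158 and 40824 CPM over 5 erythroid genes). It was the only such gene there, where 3.59% and 5.18% of all genes were. *Tubb2b* was at 23.1 CPM (13.2 to 37.6, from 16 UMIs) in the B cell-marked cluster 10 of 28W spleen, again alone, beside 9.04% of all genes. This cluster was also marked by myeloid genes, at 1454 CPM. In that cluster *Tubb2a* was at 98.3 CPM, *Sox4* at 7.23 and *Myb* at 10.1. In the 7 remaining clusters of 12W spleen (2, 4, 5, 6, 7, 9 and 10) 0 of 9 genes were at least 2-fold higher, where 3.50%, 0.243%, 0.148%, 0.348%, 10.8%, 0.678% and 5.49% of all genes were. In 28W spleen the same count of 0 held for clusters 1, 2, 4, 5, 6, 7 and 9, with 0.0959%, 1.39%, 0.828%, 0.654%, 8.41%, 0.296% and 4.13% of all genes.

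**Figure D3:**
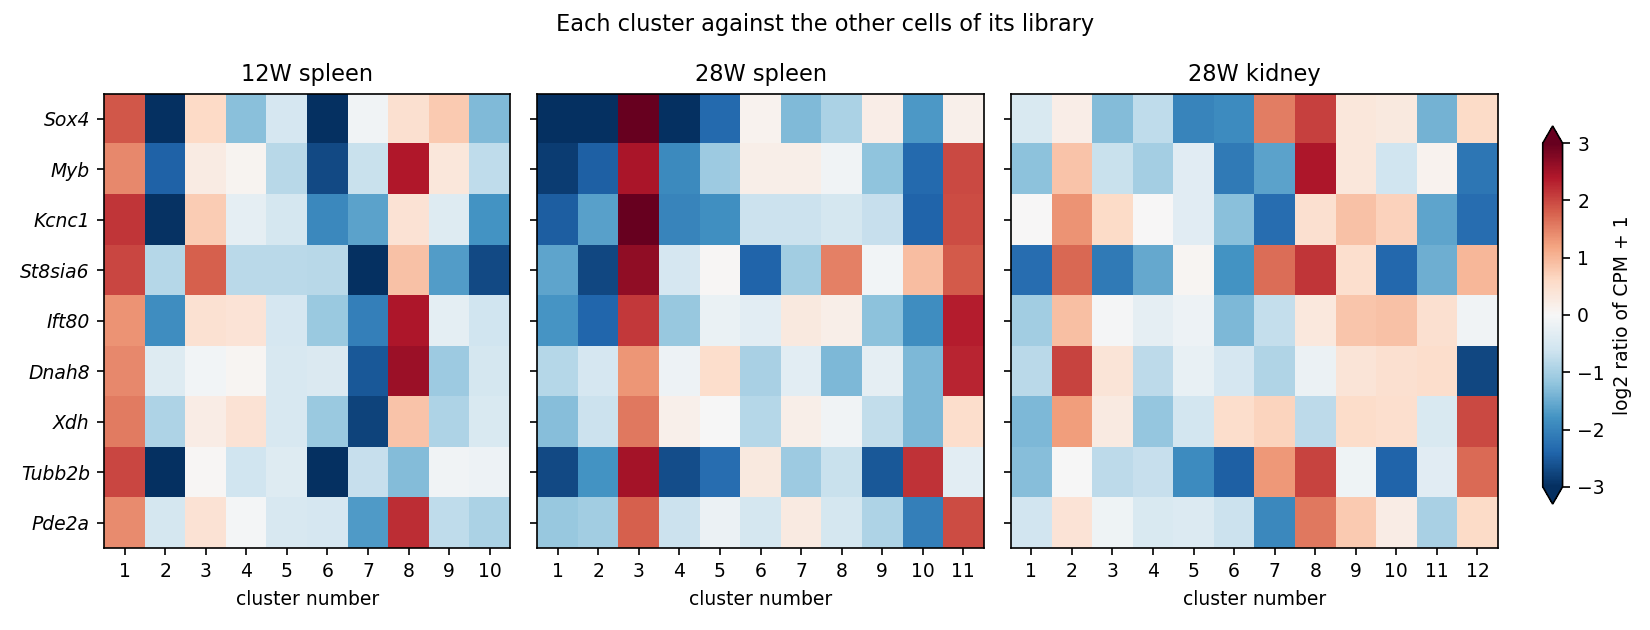
Log2 ratio of CPM + 1 in each cluster (columns, numbered as deposited) over the other cells of its library, for the 9 genes (rows) in the 3 libraries, red above and blue below 0. All 9 rows are red in 12W spleen cluster 1 and 28W spleen cluster 3, and no kidney column is red in all rows.

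Over the clusters of a library the genes moved together in the spleens more than in the kidney. The 36 pairs had a median Pearson correlation of log2(CPM + 1) of 0.71 over the 10 clusters of 12W spleen and 0.65 over the 11 clusters of 28W spleen, with 36 of 36 above 0 in both. Over the 12 kidney clusters the median was 0.26, with 28 pairs above 0 and the lowest at -0.32. Clusters of a library share its preparation and differ in depth, and in the spleens the genes were chosen for a shared high cluster, so these values describe the libraries only. In 28W spleen the closest to the mean of the others were *Myb* (0.95), *Kcnc1* and *Ift80* (both 0.94), and the farthest was *Tubb2b* (0.38). In kidney *Ift80* (0.71) and *Myb* (0.68) were closest and *Xdh* (0.13) farthest.

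Kidney clusters were then searched for the set. Cluster 8, with 544 cells and 5151 UMIs per cell, was the only 1 of 12 in which at least 5 of 9 genes were at least 2-fold above the other kidney cells, where 6.49% of all genes were. *Sox4* was at 22.1 CPM (17.0 to 28.4) there against 4.57 (3.80 to 5.45) in the other kidney cells, and *Myb* at 63.9 (54.9 to 73.9) against 11 (9.77 to 12.3). *St8sia6* was at 15.7 CPM against 2.80, *Tubb2b* at 15.3 against 2.99 and *Pde2a* at 20.7 against 6.23. The remaining genes were not raised by this measure. *Kcnc1* was at 5.35 CPM (3.0 to 8.83) against 3.54 and *Ift80* at 12.8 (9.0 to 17.8) against 10.1, with ratio intervals that held 1. *Dnah8* was at 21.4 CPM against 24.5 and *Xdh* at 3.93 against 7.44.

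The cluster was marked by B cell genes, and the number of genes past 2-fold depended on the pseudocount. With 10 CPM in place of 1, no kidney cluster reached 5 genes. The 6 B cell markers were all at least 2-fold higher in cluster 8 and summed to 1990 CPM, against 10.9 to 176 CPM in the other 11 kidney clusters. *Cd79a*, a part of the B cell receptor, was at 1074 CPM. The 6 CD8 T cell markers summed to 1760 CPM, with *Cd8a* at 168, and 5 of the 6 were at least 2-fold lower than in the other kidney cells. The part of B cells or of droplets with more than 1 cell in the levels of the set was not tested. Of the 5 genes raised here, *Tubb2b* was also higher in the B cell-marked cluster 10 of 28W spleen (23.1 CPM against 4.34 in the other cells), and so was *St8sia6* (18.8 against 9.48, 1.98-fold, 1.04 to 3.44). *Sox4* (7.23 against 26.3), *Myb* (10.1 against 54.6) and *Pde2a* (5.78 against 27.3) were lower there. That spleen cluster had B cell markers at 2658 CPM and also myeloid markers at 1454 CPM, so its levels are not those of B cells alone.

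Kidney cluster 8 held 33.3% (26.6 to 40.6) of all kidney UMIs of *Sox4*, 37.5% (33.2 to 42.0) of those of *Myb*, 36.7% of those of *St8sia6* and 34.7% of those of *Tubb2b*, in 7.62% of cells. Its levels were still under those of the picked spleen cluster. *Sox4* reached 19.2% of its level in 28W spleen cluster 3, *Myb* 36.1%, *St8sia6* 43.2% and *Pde2a* 29.9%. *Tubb2b* came nearest, at 84.8%.

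**Figure D4:**
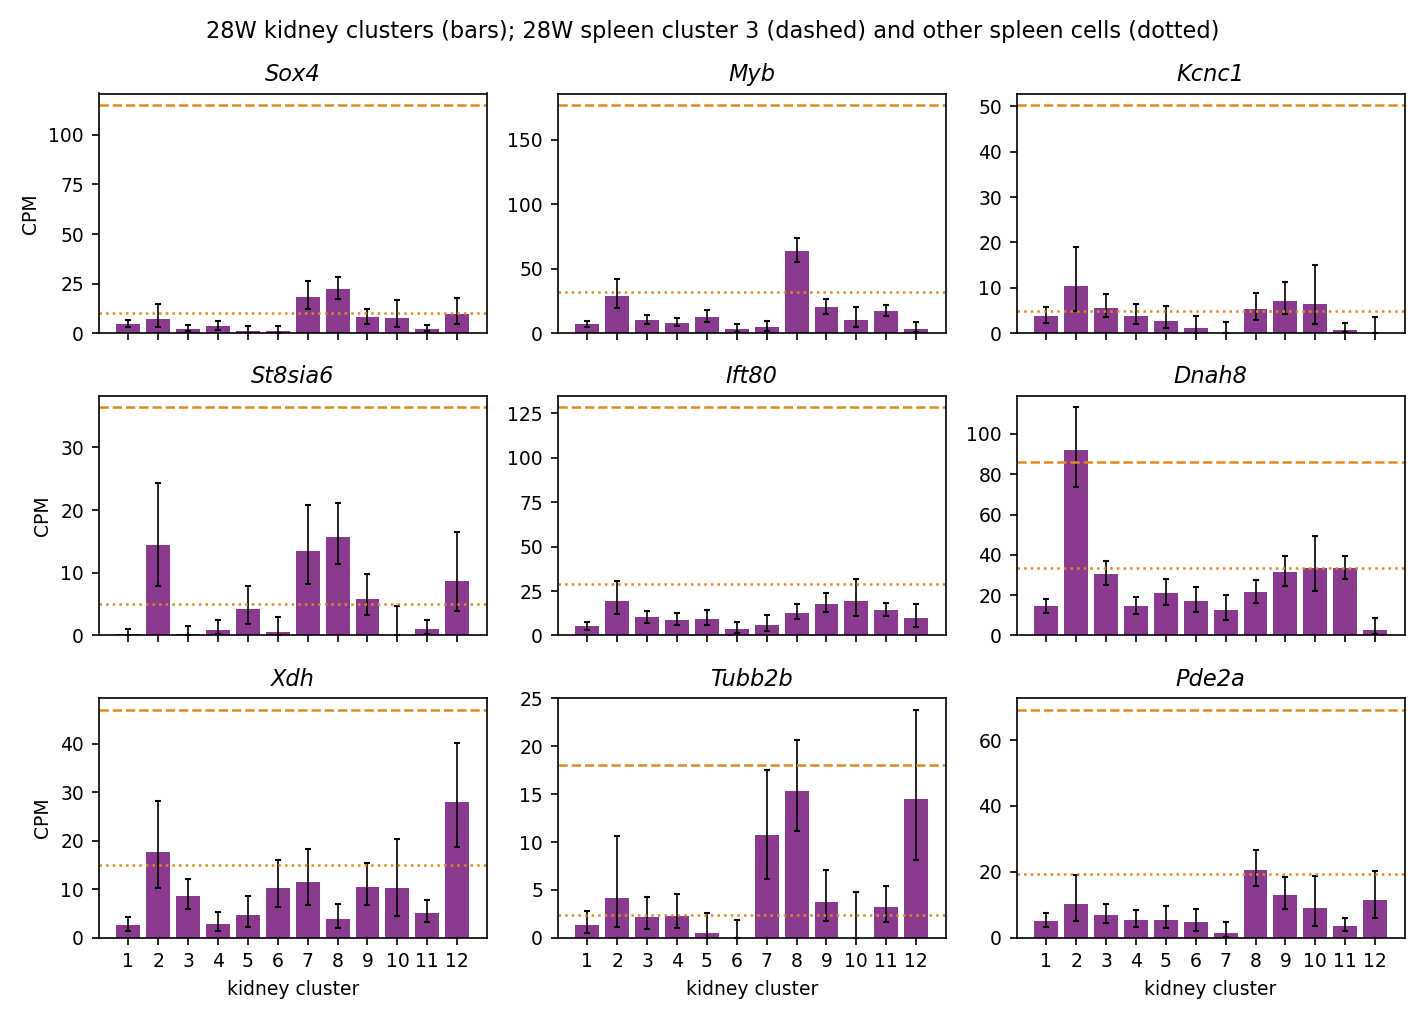
Level of each gene in CPM (bars, from 0, with exact Poisson 95% intervals) in the 12 clusters of 28W kidney (x axis), with the level in 28W spleen cluster 3 (dashed line) and in the other 28W spleen cells (dotted line). The bars stay under the dashed line except *Dnah8* in cluster 2, and cluster 8 stands out for *Sox4*, *Myb*, *St8sia6*, *Tubb2b* and *Pde2a*.

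Other kidney clusters had different parts of the set. In cluster 2, *Kcnc1* was at 10.3 CPM (10 UMIs), *St8sia6* at 14.5 (14 UMIs), *Dnah8* at 92 (89 UMIs) and *Xdh* at 17.6 (17 UMIs), each at least 2-fold above the rest, where 17.6% of all genes were. This cluster had 1200 UMIs per cell, 10.8% mitochondrial UMIs and 470 CPM over the 6 kidney tubule markers, and *Malat1* was at 19221 CPM. It was also haemoglobin-marked, with 2147 CPM over the 5 erythroid genes. Its *Dnah8* level was the only kidney value above 28W spleen cluster 3, yet per 100 cells it was 11 UMIs against 45.2.

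In cluster 7, marked by tubule genes (3091 CPM), *Sox4* was at 18.2 CPM, *St8sia6* at 13.5 and *Tubb2b* at 10.8, beside 13.2% of all genes at least 2-fold higher. *Kcnc1* had 0 UMIs there, which allows up to 2.02 CPM, and *Myb* was at 4.72 CPM. In the myeloid-marked cluster 12 (10020 CPM over 6 markers), *Xdh* was at 27.9 CPM and *Tubb2b* at 14.4, beside 14.4% of all genes, while *Myb* was at 2.89 CPM and *Kcnc1* again at 0 UMIs, which allows up to 2.89 CPM. What these cells contribute to the kidney levels of the set was not tested.

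Among clusters with low levels of these other markers, cluster 9 was the highest for 7 of the 9 genes, with *Ift80* and *Dnah8* the exceptions. *Myb* was at 20.04 CPM (14.8 to 26.6) there, *Sox4* at 7.93 (4.77 to 12.4), *Ift80* at 17.9 (13 to 24.2), *Kcnc1* at 7.10 (4.13 to 11.4) and *Pde2a* at 12.9 (8.79 to 18.4). No gene of the set was 2-fold above the rest, where 0.546% of all genes were, although 8 of 9 had a log2 ratio above 0. B cell markers summed to 16.7 CPM, tubule markers to 6.68 and CD8 T cell markers to 4678 in these 513 cells. The interval of *Sox4* overlapped with that of the 28W spleen cells outside cluster 3 (10.1 CPM, 8.91 to 11.3), whereas *Myb* was below their 31.8 CPM (29.7 to 34.0). Likewise 0 of 9 were 2-fold higher in kidney clusters 1, 3, 4, 5, 6, 10 and 11, where 0.386%, 0.731%, 0.466%, 0.490%, 0.948%, 8.37% and 6.28% of all genes were. Of these clusters, 11 was haemoglobin-marked, with 1809 CPM over the erythroid genes. The lowest kidney levels of *Myb* were in cluster 12 and in cluster 6, at 3.10 CPM.

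**Figure D5:**
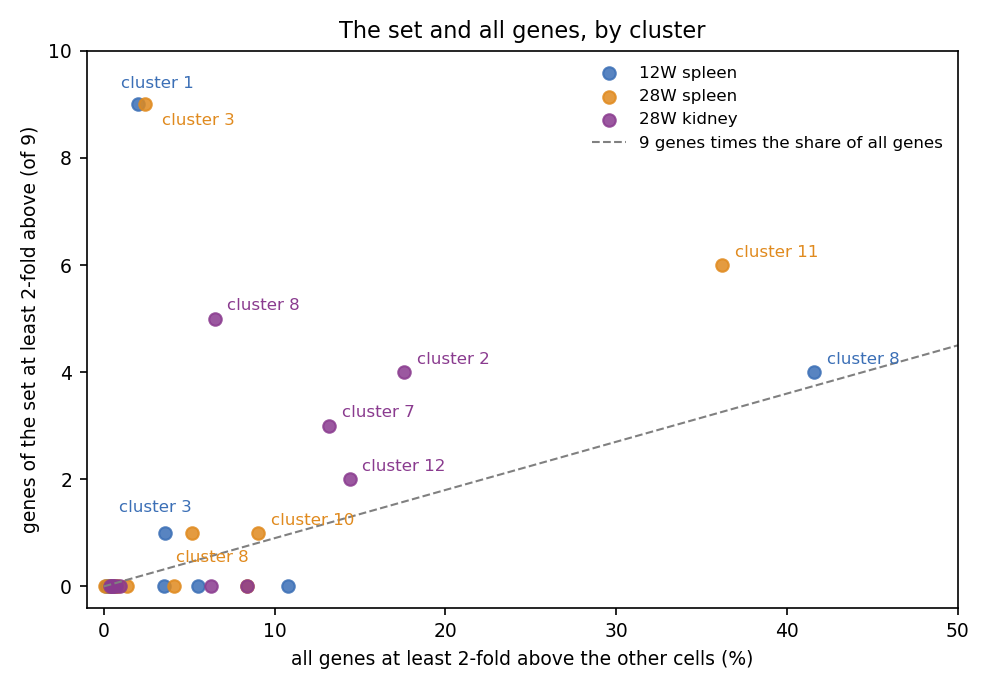
Number of the 9 genes at least 2-fold above the other cells of the library (y axis) against the percent of all genes that were (x axis), with 1 point per cluster and the dashed line at 9 times that share. The picked clusters lie at 9 genes by choice, kidney cluster 8 lies at 5 genes and 6.49%, and the low-RNA cluster 8 of 12W spleen lies close to the line.

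The known stem and memory genes were followed beside the set, as a list of 14 genes. By age 0 were at least 2-fold higher and 2 lower, *Lef1* (357 to 173 CPM) and *Satb1* (182 to 84.4 CPM), with a median log2 ratio of -0.32. By organ 9 were lower and 0 higher, with a median of -1.07. In 12W spleen cluster 1 the median over the other cells was 0.78 with 1 gene 2-fold higher, and in 28W spleen cluster 3 it was 0.88 with 5, against medians of 0.21 and 0.06 over all genes. *Il7r* was low in 28W spleen cluster 3, at 93.8 CPM beside 348 over the library.

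Kidney cluster 8 had 9 of these 14 genes at least 2-fold above the other kidney cells, with a median of 1.43 beside -0.37 over all genes. *Ccr7* was at 460 CPM and *Klf2* at 1309, while *Slamf6* was at 64.6 beside 98.3 over the library. All 7 cytotoxic genes were at least 2-fold lower there. Of the 7, 2 were that much lower in 12W spleen cluster 1 and 3 in 28W spleen cluster 3. *Ikzf2*, which encodes the transcription factor Helios, was at 221 CPM in 12W spleen cluster 1, 135 in 28W spleen cluster 3 and 26.8 in kidney cluster 8. It was higher in the low-RNA clusters 8 of 12W spleen (797 CPM) and 11 of 28W spleen (339), and in kidney cluster 10 (56.8). Of the list of 10 genes that holds *Ikzf2*, 3 of 9 measured were at least 2-fold higher in 12W spleen cluster 1. In 28W spleen cluster 3, 3 of 10 were higher and 1 lower.

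Relatives of the genes in the set showed no shared shift. Of 16 other intraflagellar transport genes, 0 passed 2-fold by age or by organ, and the medians of -0.15 and -0.04 lay near those of all genes. None of the 15 measured in the picked clusters was 2-fold higher there. Of 12 other sialyltransferases 0 passed by age and 1, *St6gal1*, was lower by organ (19.5 CPM in 28W spleen and 7.95 in kidney). Of 9 measured phosphodiesterases 0 passed in either comparison, but *Pde7a* was 2-fold higher in 12W spleen cluster 1 (200 CPM beside 114 over the library) and *Pde3b* and *Pde8a* in 28W spleen cluster 3.

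Among the beta-tubulins, *Tubb3* was the only 1 of 6 past 2-fold by age, at 6.82 CPM in 12W spleen and 0.531 in 28W spleen. *Tubb2a* was at 18.5, 10.4 and 15.3 CPM over the libraries and at 53.2 in kidney cluster 8, where *Tubb2b* was also raised. Other axonemal dynein genes were at or under 0.662 CPM in every library. *Dync2h1*, the dynein of intraflagellar transport, was at 3.60, 3.19 and 3.21 CPM. The relatives *Sox12* and *Mybl1* stayed at or under 0.501 CPM, *Sox11* had 0 UMIs, and *Mybl2*, a gene of cycling cells, was at 4.17, 5.37 and 6.31 CPM. Among 5 other measured potassium channels, *Kcna3*, the main voltage-gated channel of T cells, was at 34.2, 31.5 and 19.7 CPM, *Kcnk5* was 2-fold higher by age and by organ at 1.24, 3.87 and 11.7 CPM, and *Kcna2* was 2-fold lower by organ at 1.61, 2.50 and 0.534 CPM. Of 8 measured purine genes, *Nt5e* was the only 1 past 2-fold by age, at 5.15 and 15.6 CPM, and 0 were by organ.

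The genes outside the set whose profile over the 10 and 11 spleen clusters was most like the mean of the 9 were sought among 7964 genes with at least 200 UMIs in each spleen library. They were *Dglucy*, *Txndc12*, *Cdk5rap3*, *Sesn1*, *Rps6ka5*, *Mpp1*, *Satb1*, *Dusp1*, *Suox* and *Grk6*, with mean correlations of 0.97 for the first to 0.87 for the last. Of the 10, 4 were at least 2-fold above the other cells in 12W spleen cluster 1 and 7 in 28W spleen cluster 3. Over all genes these shares were 2.01% and 2.41%. The 10 are the highest of 7964 correlations over few clusters, some low in RNA, so the list is a description and no test. *Dglucy* was at 34.3 CPM in 12W spleen cluster 1 and 34.1 in 28W spleen cluster 3, against 9.49 and 6.32 in the other cells. In kidney cluster 8 it was at 7.14 CPM against 3.13. There *Rps6ka5* (13.9 against 4.94 CPM), *Satb1* (107 against 11.6) and *Dusp1* (526 against 94.9) were at least 2-fold higher, 3 of the 10, and *Suox* was lower (4.28 against 11.2). By age 2 of the 10 were at least 2-fold lower and by organ 3, while *Dusp1* was at 63.6 CPM in 12W spleen and 192 in 28W spleen.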

How the data were processed

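Cells of 3 groups, sorted as PD-1+CD44+CD8+, were profiled with 10x Genomics 5′ chemistry. The study's methods name the Cell Ranger vdj pipeline for gene quantification too. Collagenase digestion is stated for kidneys and not for spleens. The submitters' processing notes name Cell Ranger 2.1.1, R 3.6.1 and GRCm38. The annotation release, cell filters, handling of doublets and use of strand are not given in the sources used here. Groups came from sample titles, since the age label of the samples titled 28W spleen says 12 weeks.

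The authors deposited, per library, the cluster number of each barcode and a table with 1 value per gene and cluster, the mean UMI count scaled to the median cell. Columns of log2 fold changes and adjusted p-values hold the authors' own comparisons and were not used. Each mean column was a multiple of a single step, and division by it gave whole UMIs for 100% of values (tolerance 0.001). These were summed and scaled to 1000000 UMIs, so levels across the separately normalized tables rest on library totals. No doublets could be called from cluster means.

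Ratios used log2(CPM + 1). Genes with at least 20 UMIs over the cells compared entered background shares, and a gene was counted where the ratio reached 2-fold. With 1 library per group no test was made. Intervals of ratios are exact conditional binomial limits. The 9 genes, 17 gene lists (149 genes) and comparisons were chosen with earlier results of these data known. Genes named were the 9, examples of the lists, and the 10 non-members most correlated with the mean spleen profile. A few genes of clusters (*Malat1*, *Ikzf2*, *Cd79a*) were added after their values were seen. Clusters were called marked where a list of another cell type reached 500 CPM and 10-fold over the median cluster. Of 18992 gene identifiers, 18960 were in GENCODE M21. The ratio steps were tested on simulated counts. Python 3.11.15, numpy 2.4.6, pandas 2.3.3, scipy 1.17.1 and matplotlib 3.10.9 were used. Alternatives were another scaling, total, pseudocount, fold, minimum of UMIs and set of clusters.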

Additional observations from a re-analysis of the deposited data

How the results depend on the processing

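The 9 genes were recomputed by age and by organ under 9 alternatives, which gave 162 values. Of these, 113 lay within the counting interval of the main ratio of plain CPM and 49 lay outside it. None reversed a called direction, and 158 of the values were below 0. The exceptions were *Dnah8* and *Pde2a* by age under scaling by the median gene ratio, and, without the picked clusters, *Dnah8* by age and *Tubb2b* by organ (0.60). Averaging the deposited means over cells gave a median by age of -0.92 with 3 genes past 2-fold (3.12% of all genes), and by organ of -1.27. Percentages in parentheses here count all genes past 2-fold in either direction, whereas shares given above for these exclusions count lower genes only. A pseudocount of 10 CPM gave -0.44 by age, -0.80 with 4 genes by organ (2.04% of all genes), and 0 kidney clusters with at least 5 genes, and a pseudocount of 0.1 CPM gave 2 genes by age (6.99%). A larger pseudocount shrinks every ratio by construction. Leaving out the clusters from which the genes were picked gave -1.04 with 5 genes by age (3.28%) and -0.62 with 2 genes by organ (9.15%). Leaving out clusters marked by B cell, myeloid or kidney tubule genes gave 2 genes by age (2.63%), and leaving out haemoglobin-marked clusters too also gave 2 (2.29%). By organ these exclusions took the median to -1.82 and -1.89 with 7 genes (6.40% and 5.91%), *Sox4* to -2.60 and -2.55, *St8sia6* to -1.82 and -2.04, and *Tubb2b* to -0.82 and -0.996. A 1.5-fold threshold gave 2 kidney clusters with at least 5 genes (clusters 2 and 8) and a 4-fold threshold gave 0. The causes of shifts were not tested. Leaving out clusters under 1500 UMIs per cell, an alternative chosen after seeing the data, moved the medians to -0.75 by age and -1.47 by organ. The shares of all genes past 2-fold were 2.0% and 2.99% by age and 7.12% and 8.61% by organ without a minimum of UMIs and with 100.

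No paired analysis was possible because each deposited table pools the 4 samples of its group. Within a group the titles differ only by a suffix whose meaning is not given, so samples cannot be matched between groups. Depth limited the kidney most, where cluster levels of *Kcnc1*, *St8sia6* and *Tubb2b* rested on few UMIs. Variation between mice or preparations, and the separate scaling of the 3 tables, cannot be told apart from age and organ.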
